A study of Mus musculus with 4 samples.

Results

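Enterocytes that carry Fabp6 and show no sign of division were examined in mouse small-intestinal crypt preparations by single-cell RNA sequencing. The cells were selected on measured values. A cell needed 500 or more detected genes and no more than 20% of its UMIs (unique molecular identifiers, which count captured transcript molecules) from mitochondrial genes. Its enterocyte score (mean z-score of Fabp1, Sis and Apoa1) had to be the highest of 7 lineage scores and at least 0.5. Its division score (Mki67, Top2a and Cenpf) had to be under 0.5, and Fabp6 had to reach 2 UMIs per 10000. The rule found 89 cells of 29731: 18 in library 0D-1, 12 in 0D-2, 41 in 2D-1 and 18 in 2D-2. The same rule without the Fabp6 limit found 2866 cells, so 2777 enterocytes low in Fabp6 served for comparison. The study took small-intestinal epithelium before and after sleep deprivation, and its labels give 2 libraries for each of the groups 0D and 2D. They do not say what D stands for, and they name no genotype, strain, age or sex. Crypts were freed with EDTA, strained and made into 10x Genomics 3′ version 2 libraries. The labels do not tie libraries to animals, so each p-value reflects spread among libraries that may be technical. Values given as a series of 4 follow library order: the 0D libraries (0D-1, then 0D-2), then the 2D libraries (2D-1, then 2D-2).

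Fabp6 encodes the ileal bile acid-binding protein, a small cytosolic carrier. In the ileum bile acids enter the enterocyte through the apical sodium-dependent transporter (Slc10a2), are carried by Fabp6 and leave across the basolateral membrane through the paired transporter Slc51a and Slc51b. Bile acids also activate the nuclear receptor FXR (Nr1h4), which is known to raise transcription of Fabp6, Slc51a, Slc51b and the hormone gene Fgf15. Enterocytes mature as they leave the crypt, and proximal and distal gut differ in the absorptive genes they use.

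Promoters of Fabp6 and Slc51b are shown because both genes are well-known FXR targets and Slc51b was higher in the Fabp6 cells of every library. Each line holds the 250 bases before the RefSeq start on the gene's own strand (build GRCm38.p6). They span chr11:43601563-43601812 (minus strand) for Fabp6 and chr9:65422774-65423023 (minus strand) for Slc51b. Capitals mark GGTNA and TNACC separated by any 1 base, which reads the same on both strands and resembles the inverted repeat with 1 spacer base (IR-1) that FXR binds. This relaxed form was chosen after these promoters had been seen.
Fabp6: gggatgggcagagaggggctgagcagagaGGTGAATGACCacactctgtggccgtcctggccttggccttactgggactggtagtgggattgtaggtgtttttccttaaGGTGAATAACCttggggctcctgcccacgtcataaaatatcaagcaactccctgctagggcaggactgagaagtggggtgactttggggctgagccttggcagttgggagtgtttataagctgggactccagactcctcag
Slc51b: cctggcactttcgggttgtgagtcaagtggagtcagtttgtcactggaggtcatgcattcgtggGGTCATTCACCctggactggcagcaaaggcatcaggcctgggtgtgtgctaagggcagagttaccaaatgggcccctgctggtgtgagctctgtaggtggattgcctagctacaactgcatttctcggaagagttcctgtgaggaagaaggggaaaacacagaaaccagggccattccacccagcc
The matches in Fabp6 began 221 and 141 bases before the start, and the match in Slc51b began 186 bases before it. Of 32851 RefSeq promoters of 300 bases (250 before to 50 after the start), 0.262% held such a match. The promoters of Slc10a2, Slc51a and Nr1h4 held none in this window. A stricter form, AGGTCA and TGACCT separated by any 1 base, was present in 0.00913% of promoters and in none of the 5.

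Libraries held 7025 to 7988 cells after filtering, with 93090534 to 113758758 UMIs. The Fabp6 cells gave 247568, 173927, 614152 and 159681 UMIs in library order, with medians per cell of 10440, 17059.5, 8183 and 4756.5. With so few cells, a single cell supplied up to 28.1% of a library's sum (0D-1). The sums also lay further apart than those of enterocytes low in Fabp6. Their root mean square log2 difference between libraries was 0.531 to 0.666, against 0.117 to 0.292. Between 20 and 32 deposited barcodes were shared by any 2 libraries, and no barcode was shared between Fabp6 cells. Of the 89 cells, 18 also scored at least 0.5 for another lineage, 4 lay above a doublet score common to all libraries, and 11 passed the limit with 1 Fabp6 UMI.

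The level of Fabp6 was spread widely among the members. Its median was 25.9 UMIs per 10000 in 0D-1, 13.3 in 0D-2, 159 in 2D-1 and 61.8 in 2D-2, over a range from 2.04 to 1394. Just inside the limit, 15 cells had 2 to under 5 UMIs per 10000, and just outside it 22 had 1 to under 2. Another 186 enterocytes had a level above 0 and under 1, and 2569 had none. At the top, 32 cells had 200 or more. These values chose the cells and are given as a description.

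**Figure D1:**
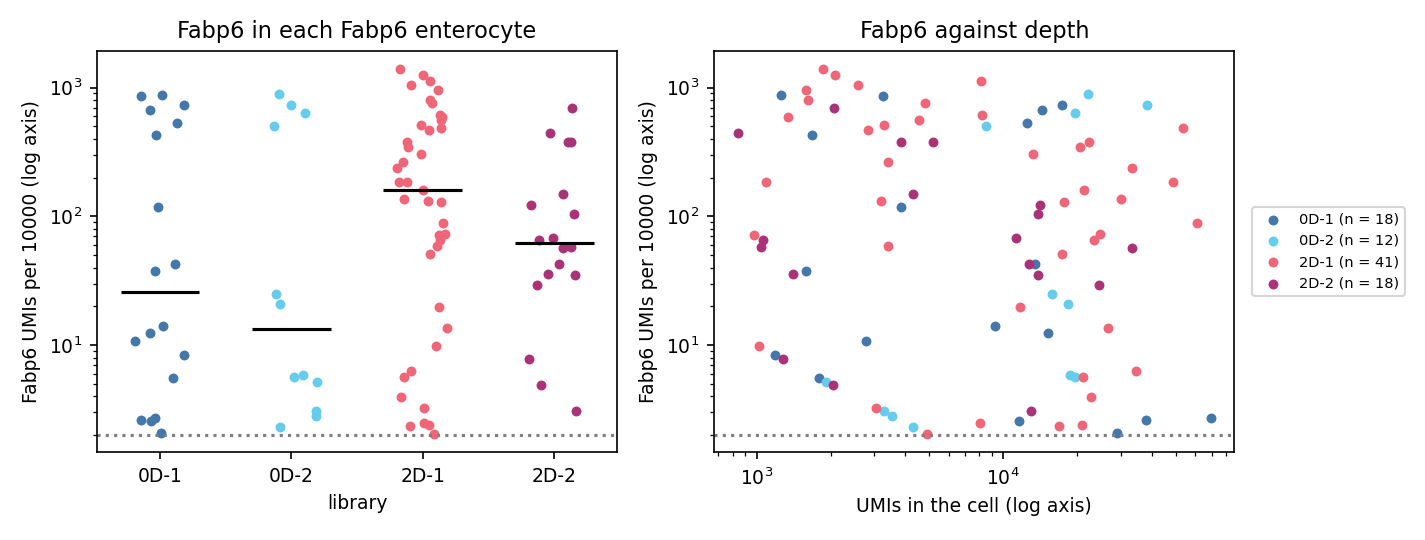
Left: Fabp6 UMIs per 10000 in each Fabp6 enterocyte by library (log axis), with the library median as a bar and the limit of 2 as a dotted line. Right: the same values against the UMIs of the cell (both log axes), with 18, 12, 41 and 18 cells in library order. High levels of Fabp6 occurred in shallow and in deep cells.

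The enterocyte label was checked against its markers. Among the genes of the rule, Fabp1 (a fatty acid-binding protein) was at 703, 506, 252 and 125 CPM in library order, where CPM are UMIs per 1000000 UMIs of the summed cells. It was at 2967, 2681, 1941 and 1893 CPM in enterocytes low in Fabp6, so the Fabp6 cells were lower in all 4 libraries. Sucrase-isomaltase (Sis) was at 335, 644, 684 and 1177 CPM, and apolipoprotein A-I (Apoa1) at 1163, 696, 1404 and 3451 CPM. Enterocyte genes outside the rule were present in every library. Villin (Vil1), an actin bundler of the brush border, was at 485 to 927 CPM, aminopeptidase N (Anpep) at 362 to 783 and the villus keratin Krt20 at 553 to 927. Vil1, Anpep and Krt20 were higher in the members of all 4 libraries. Alkaline phosphatase (Alpi) was at 32.6 to 100.2 CPM in the members and 60.7 to 109 CPM in the others, with overlapping ranges. The lipid absorption gene Fabp2 was at 982, 724, 1239 and 4559 CPM against 1615, 1520, 1304 and 1866 CPM. Mttp, another, was at 287 to 438 CPM against 306 to 372 CPM. Both were higher in the members of 2D-2 only, and the sugar transporter Slc5a1 in those of both 2D libraries only.

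Fabp6 was not restricted to the cells of the rule. At 10 or more UMIs per 10000 there were 226 cells, of which 65 were members, 52 had the enterocyte score highest but under 0.5, 33 had the division score highest and 74 had another lineage score highest. As a measure of background, 6.82% of goblet-highest cells had a Fabp6 UMI (median 10184 UMIs per cell), and 1.43% reached 2 per 10000. In enterocytes low in Fabp6, 7.49% had a UMI (median 14323). After thinning each cell to 3000 UMIs the shares were 2.73% and 1.49%, against 89.2% of the members. The rule split the enterocytes on Fabp6, so the shares in both kinds of enterocyte are a description only. Thinning left out 24 of 89 members, 158 enterocytes low in Fabp6 and the goblet-highest cells that were shallower.

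Fabp6 cells were a larger part of the non-dividing enterocytes in both 2D libraries than in both 0D libraries. They made up 1.88% (95% exact binomial interval 1.12 to 2.96) in 0D-1, 1.37% (0.710 to 2.38) in 0D-2, 6.56% (4.75 to 8.79) in 2D-1 and 4.41% (2.64 to 6.88) in 2D-2. The means were 1.63% ± 0.361 and 5.49% ± 1.52 (SD, n = 2), and the groups did not overlap. An exact permutation test of these 4 shares (two-sided) gave p = 0.333, the smallest that 2 against 2 libraries allow. Intervals cover counting error only.

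The denominator moved as well, since enterocytes low in Fabp6 numbered 939, 864, 584 and 390. Of all cells, the Fabp6 cells made up 0.237%, 0.168%, 0.584% and 0.225%, and here the groups overlapped (exact permutation p = 0.667). The difference of the means was 0.202 percentage points, and 0.0226 without 2D-1. Background moved in the same library: 0.311%, 0.853%, 4.22% and 0.617% of goblet-highest cells reached 2 Fabp6 UMIs per 10000. Its part in the share of 2D-1 was not tested. At a limit of 10 UMIs per 10000 the members numbered 12, 6, 32 and 15. They were then 0.158%, 0.0841%, 0.456% and 0.188% of all cells, without overlap of the groups (exact permutation p = 0.333). The overlap in the share of all cells thus depended on the setting.

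What went with Fabp6 in the same cells was described next, by setting the members beside enterocytes low in Fabp6 within each library. The cells were split on Fabp6, so genes that go with it differ by construction, and the values are a description. Of 9311 genes outside the rule, 1063 were higher in the members in all 4 libraries (11.4%) and 2092 were lower in all 4 (22.5%). These counts compare CPM scaled by total UMIs alone. Fabp6 took 8592 to 37838 CPM of the members' totals. Reg3b took 40130 to 57396 CPM of them, against 5334 to 21935 CPM in the others. The part of such genes, and of sums from few cells, in these 2 counts was not tested. With edgeR, 713 (7.66%) passed an adjusted p of 0.05 as higher and 721 (7.74%) as lower, and nothing is read from these counts. The median log2 difference over all genes was -0.05.

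Bile acid transport genes were higher in the members of every library. An 11-gene list includes Fabp6, and of the 7 other genes that could be compared 4 were higher in all 4 libraries and 0 were lower in all 4. Over all genes these shares were 11.4% and 22.5%. The uptake transporter Slc10a2 (ENSMUSG00000023073; chromosome 8, 5083219 to 5105287) was at 80.8, 126, 114 and 56.4 CPM in library order. It was at 0.128, 0.132, 0.258 and 0.738 CPM in enterocytes low in Fabp6, a log2 difference of 8.62 ± 0.40 (SE). A Slc10a2 UMI was found in 34.8% of members, 0.396% of enterocytes low in Fabp6 and 0.0208% of goblet-highest cells, and in 20%, 0.0382% and 0.0111% after thinning to 3000 UMIs. The members of each library lay above the other enterocytes of all 4 libraries.

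Export genes were present in both kinds of enterocyte and differed in level. Slc51a (chromosome 16, 32475578 to 32487879) was at 602, 828, 682 and 764 CPM in the members and at 146, 144, 114 and 119 CPM in the others, a log2 difference of 2.49 ± 0.13 (SE). Slc51b (chromosome 9, 65412753 to 65422773) was at 339, 598, 502 and 507 CPM against 75.0, 87.3, 86.4 and 63.3 CPM. The receptor Nr1h4 was at 117, 126, 114 and 144 CPM against 38.7, 35.7, 41.2 and 34.3 CPM. The 0D and 2D members overlapped in Slc51a and Slc51b.

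The remaining bile acid genes were scarce or overlapped between the classes. Fgf15, the ileal hormone that represses hepatic bile acid synthesis, had 8 UMIs in all members (4.04, 17.2, 3.26 and 12.5 CPM). Nr0b2, a repressor downstream of FXR, and the bile acid receptor Gpbar1 had 0 UMIs in the members, where 3 UMIs would be 2.51 CPM. The exporters Abcc2 (11.5 to 62.6 CPM) and Abcc3 (20.2 to 37.6 CPM) and the FXR partner Rxra (28.7 to 45.6 CPM) overlapped with enterocytes low in Fabp6. Vitamin B12 is also taken up in the ileum. The receptor subunit Amn was at 109, 109, 83.0 and 238 CPM against 54.0, 48.1, 43.4 and 48.9 CPM, and the carrier transcobalamin 2 (Tcn2) at 140 to 213 CPM against 94.9 to 120 CPM.

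**Figure D2:**
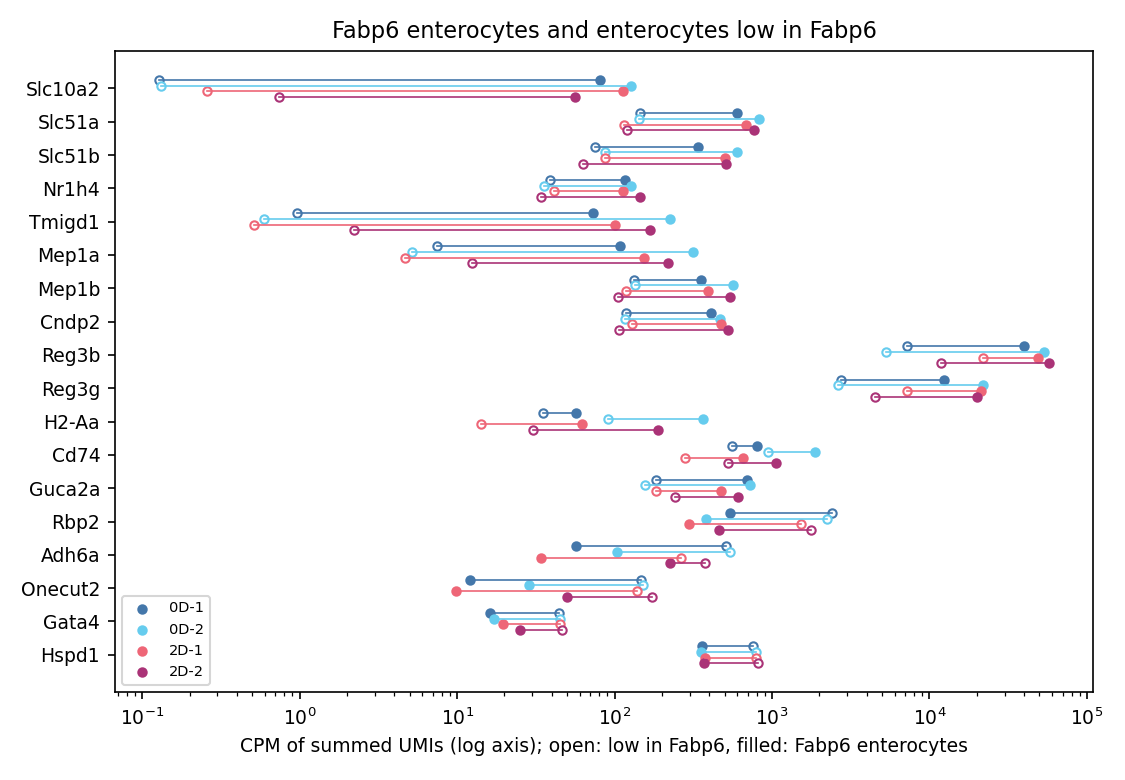
CPM of summed UMIs (log axis) for 18 genes in each library, with open points for enterocytes low in Fabp6, filled points for Fabp6 enterocytes and a line joining the points of 1 library. Slc10a2 moves from under 1 CPM to between 56.4 and 126 CPM, while Rbp2, Adh6a, Onecut2, Gata4 and Hspd1 run the other way in all 4 libraries.

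Digestive enzymes and microvillus components were higher together. Of 15 compared brush border enzymes, 12 were higher in all 4 libraries, against 11.4% of all genes. Lactase (Lct) was lower in all 4, and the median log2 difference of the list was 1.22. The metalloprotease subunit Mep1a (chromosome 17, 43474324 to 43504143) was at 109, 316, 155 and 219 CPM in the members and at 4.64 to 12.4 CPM in the others. Its partner Mep1b was at 356, 563, 392 and 545 CPM against 132, 135, 117 and 105 CPM. The dipeptidase Cndp2 was at 412 to 526 CPM against 106 to 130 CPM, and maltase-glucoamylase (Mgam) at 339 to 726 CPM against 211 to 309 CPM. The members of each library lay above the other enterocytes for these 4 enzymes.

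Of 13 microvillus genes, 12 were higher in all 4 libraries (median 1.14), against 11.4% of all genes. The cell adhesion protein Tmigd1 (chromosome 11, 76891120 to 76916587) was at 72.7, 224, 101 and 169 CPM against 0.962, 0.593, 0.516 and 2.21 CPM. The intermicrovillar cadherin Cdhr5 was at 533 to 758 CPM against 250 to 300 CPM. Ush1c, an anchor of these cadherins, was the exception. It was at 96.9 to 144 CPM against 90.0 to 104 CPM, and lower in the members of 0D-1.

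Several antimicrobial genes were also higher. The lectin Reg3b (chromosome 6, 78370885 to 78373466), which is directed at Gram-negative bacteria, was at 40130, 53471, 48866 and 57396 CPM in the members. It was at 7155, 5334, 21935 and 11846 CPM in the others. Reg3g, its relative directed at Gram-positive bacteria, was at 12336 to 21814 CPM against 2607 to 7183 CPM. The acute-phase gene Saa1 was at 8.08, 92.0, 119 and 31.3 CPM against at most 0.922 CPM. Reg1 went the other way, at 214, 17.2, 16.3 and 225 CPM against 396 to 1207 CPM. In all, 7 of 14 compared antimicrobial genes were higher and 2 were lower in all 4 libraries, against 11.4% and 22.5% of all genes.

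MHC class II genes, which present peptides to helper T cells, were higher in all 4 libraries for 6 of 7 compared genes (median 1.15). The share over all genes was 11.4%. H2-Aa was at 56.6, 362, 61.9 and 188 CPM against 34.9, 90.5, 14.3 and 30.4 CPM, and the invariant chain Cd74 at 804, 1880, 658 and 1058 CPM against 557, 942, 280 and 524 CPM. Library 0D-2 was the highest in both kinds of enterocyte. The list's master regulator Ciita, named after its values were seen, was at 32.3, 28.7, 11.4 and 37.6 CPM against 6.09, 9.03, 1.63 and 6.46 CPM. Of 14 immune cell markers, 12 had 0 UMIs in the members, among them Ptprc, Cd3e, Cd79a and Lyz2. The summed level of the list was 4.04 to 6.26 CPM, against 0.172 to 1.29 CPM in enterocytes low in Fabp6. These member levels lie at the floor, since 1 UMI was 5.75 CPM in 0D-2 and 6.26 CPM in 2D-2. No difference between the classes is read from them. The part of immune transcripts in the MHC class II values was not tested.

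A few genes of retinoid and alcohol metabolism and of the proximal gut were lower in every library. Rbp2, the retinol carrier of enterocytes (chromosome 9, 98490537 to 98509771), was at 541, 380, 296 and 463 CPM in the members and at 2422, 2239, 1527 and 1775 CPM in the others, a log2 difference of -2.23 ± 0.14 (SE). The alcohol dehydrogenases Adh6a (56.6, 103, 34.2 and 225 CPM against 508, 545, 265 and 374 CPM) and Adh1 (9.77 to 51.7 CPM against 83.3 to 198 CPM) were lower in all 4 libraries. Of 9 compared retinoid genes, 3 were lower and 0 higher in all 4, a share near the 22.5% of all genes that were lower.

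Of 9 compared genes of the proximal gut, 4 were lower and 2 higher in all 4 libraries, against 22.5% and 11.4% of all genes. The transcription factor Onecut2 was at 12.1, 28.7, 9.77 and 50.1 CPM against 148, 152, 139 and 173 CPM. Gata4 and Pdx1 were named after their values were seen. Gata4, which maintains proximal identity, was at 16.2, 17.2, 19.5 and 25.1 CPM against 44.4 to 46.7 CPM. Pdx1, a duodenal factor, had 0 UMIs in the members and was at least 2.46-fold lower over the pooled cells (floor of 3 UMIs over all members). The iron exporter Slc40a1 and its partner Heph, also listed as proximal genes, were higher in the members of all 4 libraries (48.5 to 109 CPM against 16.6 to 32.9 CPM for Slc40a1).

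Nuclear genes of oxidative phosphorylation and chaperone genes were lower by smaller amounts. Of 30 nuclear genes of oxidative phosphorylation, 27 were lower in all 4 libraries, against 22.5% of all genes, with a median of -0.33. The 13 mitochondrially encoded genes were not lower: 2 (mt-Co1 and mt-Co2) were higher in all 4 libraries and 0 were lower, with a median of 0.07. Atp5g1, a nuclear ATP synthase subunit, was at 1346 to 1684 CPM against 2190 to 2352 CPM. Of 13 compared heat-shock and cold-response genes, 9 were lower in all 4, against 22.5% of all genes. The mitochondrial chaperone Hspd1 was at 360, 356, 376 and 370 CPM against 756, 788, 794 and 813 CPM, and Hspe1 at 232 to 586 CPM against 964 to 1020 CPM. S phase genes, which the division score did not include, were lower in all 4 libraries for 8 of 17 and higher for 0. The shares over all genes were 22.5% lower and 11.4% higher. Summed, the S phase list was at 190, 115, 194 and 150 CPM in the members, against 287, 276, 304 and 295 CPM. In the members 0 of its genes had enough counts for the test of 2D against 0D. With so few UMIs per gene a member sum can be lower through sparse counts, so nothing is read from the count of S phase genes. The hormone genes Gip (0 to 19.5 CPM against 180 to 570 CPM) and Cck (0 to 18.8 CPM against 13.8 to 286 CPM) were lower in the members. With cells left out that scored 0.5 or more for another lineage, the log2 difference for Gip was -0.53 in place of -4.72 and for Cck -0.33 in place of -3.29.

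Within the members, several of these genes followed the level of Fabp6 itself. Cells were pooled over libraries into 24 with 2 to under 10 Fabp6 UMIs per 10000, 23 with 10 to under 100 and 42 with 100 or more. Slc10a2 was at 5.69, 11.6 and 231 CPM in these levels, against 0.230 CPM in enterocytes low in Fabp6. A Slc10a2 UMI was found in 4.17%, 17.4% and 61.9% of the cells, although the cells of the top level were the shallowest (median 5002 UMIs). Mep1a was at 34.1, 98.5 and 333 CPM, and Slc51a at 244, 417 and 1212 CPM.

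Fabp1, which helped to choose the cells, ran the other way at 847, 380 and 16 CPM, and Rbp2 at 751, 438 and 82.2 CPM. Onecut2 was at 31.3, 31.9 and 0 CPM. Adh6a did not follow the level, at 71.1, 95.6 and 62.2 CPM. Without 0D-1, a check chosen after the values were seen, Slc10a2 was at 9.96, 9.91 and 216 CPM, so that its first step was gone. The goblet gene Zg16 was at 8827, 646 and 223 CPM, but 0D-1 held most of its UMIs, and without that library it was at 831, 730 and 218 CPM. No test was made across levels, since the same libraries and the same choice of cells stand behind all of them.

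**Figure D3:**
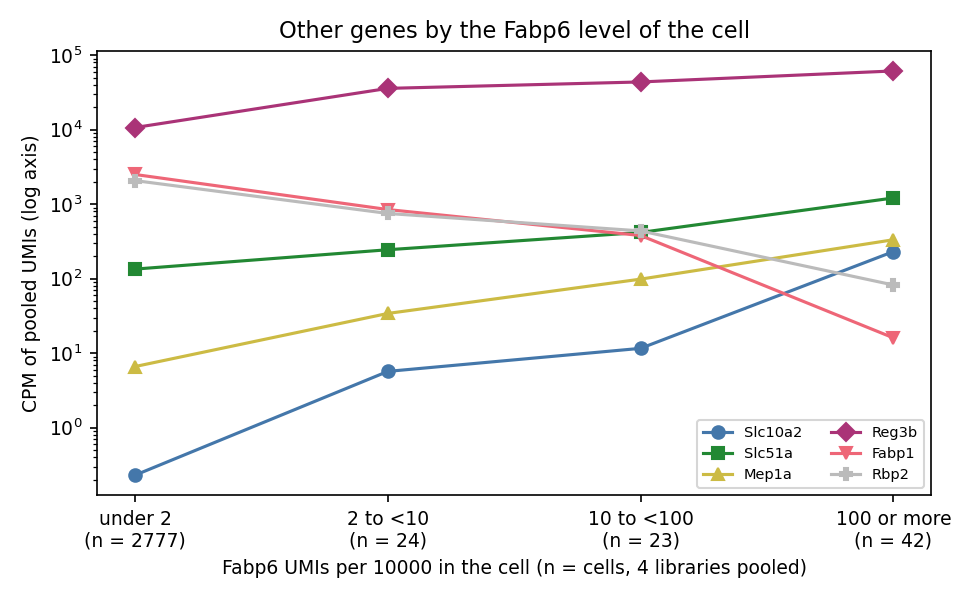
CPM of pooled UMIs (log axis) of 6 genes in non-dividing enterocytes by the Fabp6 level of the cell, over the 4 libraries together. Slc10a2, Slc51a, Mep1a and Reg3b are higher at each step from left to right (for Slc10a2, not from the lowest to the middle level of members without 0D-1), and Fabp1 and Rbp2 are lower at each step.

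The question of the study was then put to these cells, whether their transcripts differed between 0D and 2D. No gene passed. Of 2942 genes outside the rule with enough counts, 0 (0%) reached an adjusted p of 0.05 in edgeR's quasi-likelihood test, and DESeq2 also called 0. Unadjusted p-values under 0.05 were found for 281 genes (9.55%), 157 higher in 2D (5.34%) and 124 lower (4.21%). Both 2D libraries lay above both 0D libraries for 669 genes (22.7%) and below them for 531 (18%), and the median log2 difference was 0.01. Leaving out each library in turn gave 32 to 77 higher and 6 to 22 lower calls, and without the filter on low counts there were 72 and 11.

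Of the 5 bile acid genes tested, Slc10a2, Slc51a, Slc51b and Nr1h4 had differences near 0. The log2 difference of 2D from 0D was -0.13 ± 0.39 (SE) for Slc10a2, -0.02 ± 0.21 for Slc51a, 0.09 ± 0.26 for Slc51b and 0.01 ± 0.30 for Nr1h4. The edgeR adjusted p were 0.973, 0.998, 0.969 and 0.998. With such standard errors these values do not show that the genes were unchanged. Slc10a2 had 20, 22, 70 and 9 UMIs. Abcc2 was at 28.3, 11.5, 52.1 and 62.6 CPM, with 7, 2, 32 and 10 UMIs (edgeR adjusted p 0.453). It passed the filter on low counts through the 2D libraries alone, so its direction is tied to that filter. Fabp6 itself, used by the rule, was at 14299, 37838, 19536 and 8592 CPM.

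The smallest adjusted p was 0.171, shared by a pair of genes. Xdh, the xanthine dehydrogenase of purine breakdown (chromosome 17, 73883895 to 73950397), was at 105, 92.0, 300 and 344 CPM in library order, a log2 difference of 1.65 ± 0.27 (SE). Mt1, a metallothionein that binds zinc and copper (chromosome 8, 94178883 to 94180327), was at 626, 627, 285 and 276 CPM, a log2 difference of -1.19 ± 0.19 (SE). For both genes the groups did not overlap. In enterocytes low in Fabp6, Xdh was at 78.1, 102, 130 and 77.6 CPM and overlapped, while Mt1 was at 549, 301, 166 and 228 CPM and did not.

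The next genes were also among the 12 with the smallest p in their direction, with both 2D libraries on 1 side of both 0D libraries, and did not pass the adjusted threshold. The sodium-glucose cotransporter Slc5a1 was at 158, 195, 332 and 501 CPM, against 177, 206, 237 and 179 CPM in enterocytes low in Fabp6. Aadac, a lipid esterase, was at 60.6, 80.5, 17.9 and 25.1 CPM (15, 14, 11 and 4 UMIs), and it passed the filter through the 0D libraries alone. Ribosomal protein genes were among the 12 with the smallest p on the lower side. Rpl18 was at 2323, 2242, 1485 and 1215 CPM, and Rps3 at 2242, 2173, 1478 and 1428 CPM. Gm10076 (a ribosomal pseudogene) and Gm42418 (an rRNA-like locus), also among those 12, resemble other loci, so their counts are uncertain. The mitochondrial gene mt-Co1 was at 8503, 9090, 13821 and 14009 CPM.

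**Figure D4:**
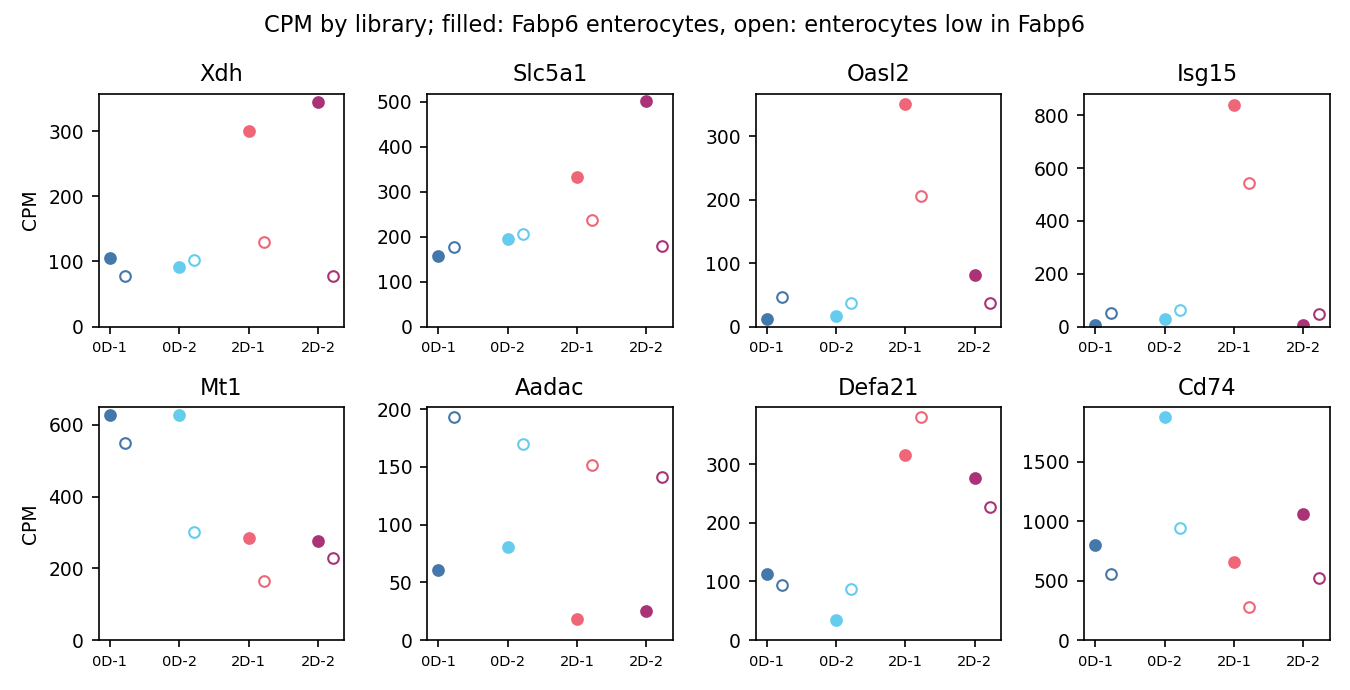
CPM of 8 genes by library (linear axes from 0), filled for Fabp6 enterocytes and open for enterocytes low in Fabp6. Xdh and Slc5a1 are higher in both 2D libraries in the filled points, Mt1 and Aadac are lower there, and Isg15 and Oasl2 stand out in 2D-1.

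Absorptive genes lay mostly above 0 in 2D, and none passed. Of 12 tested brush border enzymes, 10 were above 0 (median log2 difference 0.53), and 7 had both 2D libraries above both 0D libraries, against 22.7% of all genes. Anpep was at 396, 362, 573 and 783 CPM and Mgam at 339, 345, 497 and 726 CPM (edgeR adjusted p 0.386 each). Of 13 microvillus genes, 11 were above 0 (median 0.33). Of 14 tested lipid absorption genes, 13 were (median 0.36), with apolipoprotein B (Apob) at 323, 391, 440 and 839 CPM. Set against the 0D mean, the brush border median was 0.31 in 2D-1 and 0.99 in 2D-2, and in enterocytes low in Fabp6 it was 0.08 and 0.00. The 2D-2 library was thus the higher of the pair for these lists. The enterocyte score that chose the cells moved as well. Its median was 1.19, 1.36, 1.82 and 2.59 in the members in library order. In enterocytes low in Fabp6 it was 1.77, 1.80, 1.64 and 1.53. The part of this score, and of the Fabp6 level, in these differences was not tested.

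Mitochondrial genes divided by genome. Of 30 nuclear oxidative phosphorylation genes, 29 were below 0 (median -0.29), and 21 had both 2D libraries below both 0D libraries, against 18% of all genes. Of 12 tested mitochondrially encoded genes, 10 were above 0 (median 0.38). The median share of mitochondrial UMIs in the members moved with this, at 5.05%, 4.64%, 7.93% and 6.70%. Its part in these differences was not tested.

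Interferon response genes, which answer viral infection, were led by 2D-1. Of 35 genes, 15 passed the filter on low counts, and all 15 were above 0 (median 1.56). This direction is partly fixed by the filter, which asked for 47.5 CPM in at least 2 libraries. The 0D libraries alone would have let 4 of the 15 pass, and for 3 of them (Oasl2, Ifih1 and Zbp1) no 0D library reached that level. Nothing is read from the count. Over these 15 genes the median was 1.83 in 2D-1 and 0.81 in 2D-2, against 0.95 and -0.09 in enterocytes low in Fabp6. The same filter on the members stands behind these medians, so they are a description. Summed over all 35 genes, without the filter, the list was at 1357, 1213, 7939 and 2330 CPM in the members. In enterocytes low in Fabp6 it was at 1948, 1935, 5376 and 1684 CPM. Isg15, a ubiquitin-like modifier, did not pass the filter and was at 8.08, 28.7, 840 and 6.26 CPM. Irf7, the regulator of interferon genes, was at 48.5, 17.2, 528 and 62.6 CPM, and Rnf213 at 48.5, 51.7, 513 and 81.4 CPM. Ifi35 (72.7, 34.5, 166 and 175 CPM) and Ifi27l2b (626, 443, 1459 and 989 CPM) were higher in both 2D libraries.

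The promoter of Isg15 is shown because its level set 2D-1 apart. Capitals mark GAAA, any 2 bases and GAAA again, a core of the interferon-stimulated response element, searched on both strands.
Isg15: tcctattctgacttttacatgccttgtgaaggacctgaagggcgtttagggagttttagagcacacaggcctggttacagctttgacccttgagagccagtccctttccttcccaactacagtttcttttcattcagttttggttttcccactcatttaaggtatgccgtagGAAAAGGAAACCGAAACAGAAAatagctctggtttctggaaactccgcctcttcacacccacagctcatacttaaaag
These are the 250 bases before the RefSeq start at chr4:156200819-156201068 (minus strand, GRCm38.p6). They hold 3 overlapping matches, which begin 78, 72 and 66 bases before the start. Of all RefSeq promoters, 3.44% held a match. Of 3 other interferon genes looked up, Ifit1 held 2 matches, and Irf7 and Oasl2 held none in this window.

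Paneth genes lay above 0 and MHC class II genes below 0 in both kinds of enterocyte. All 6 tested Paneth genes outside the rule were above 0 (median 1.27), of which the 0D libraries alone would have let 3 pass the filter. Defa21 was at 113, 34.5, 316 and 276 CPM in the members and at 94.5, 86.8, 380 and 226 CPM in the others. Defensin genes are near-identical copies, so their counts are uncertain. Summed, the Paneth list was at 691, 949, 1618 and 2599 CPM in the members and 610, 775, 2451 and 2597 CPM in enterocytes low in Fabp6. Its part in other differences was not tested. All 6 tested MHC class II genes were below 0 (median -0.85), but 1 of 6 had both 2D libraries below both 0D libraries, against 18% of all genes. Library 0D-2 was the highest of the 4 for H2-Aa and Cd74, and 0D-1 lay below both 2D libraries for H2-Aa and between them for Cd74. The list's median against the 0D mean was -1.02 in 2D-1 and -0.22 in 2D-2, against -1.29 and -0.48 in enterocytes low in Fabp6.

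Goblet transcripts set 0D-1 apart. Zg16, a goblet cell lectin, was at 11932, 322, 523 and 676 CPM in the members, and the summed goblet list outside the rule was at 20536, 1581, 3255 and 2561 CPM. In enterocytes low in Fabp6 the sums were 4242, 4206, 3483 and 6261 CPM. Guca2a, a guanylin gene of that list, was instead higher in the members of all 4 libraries (475 to 730 CPM against 156 to 242 CPM). In 0D-1, 1 member with 29039 UMIs had a goblet score of 1.29, the highest of its 18 members. Of those 18 cells, 1 lay above the common doublet score. The part of single cells in the goblet sum of 0D-1 was not tested. Tuft markers summed to 0 CPM in each library, and of 7 stromal markers 6 had 0 UMIs in the members.

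**Figure D5:**
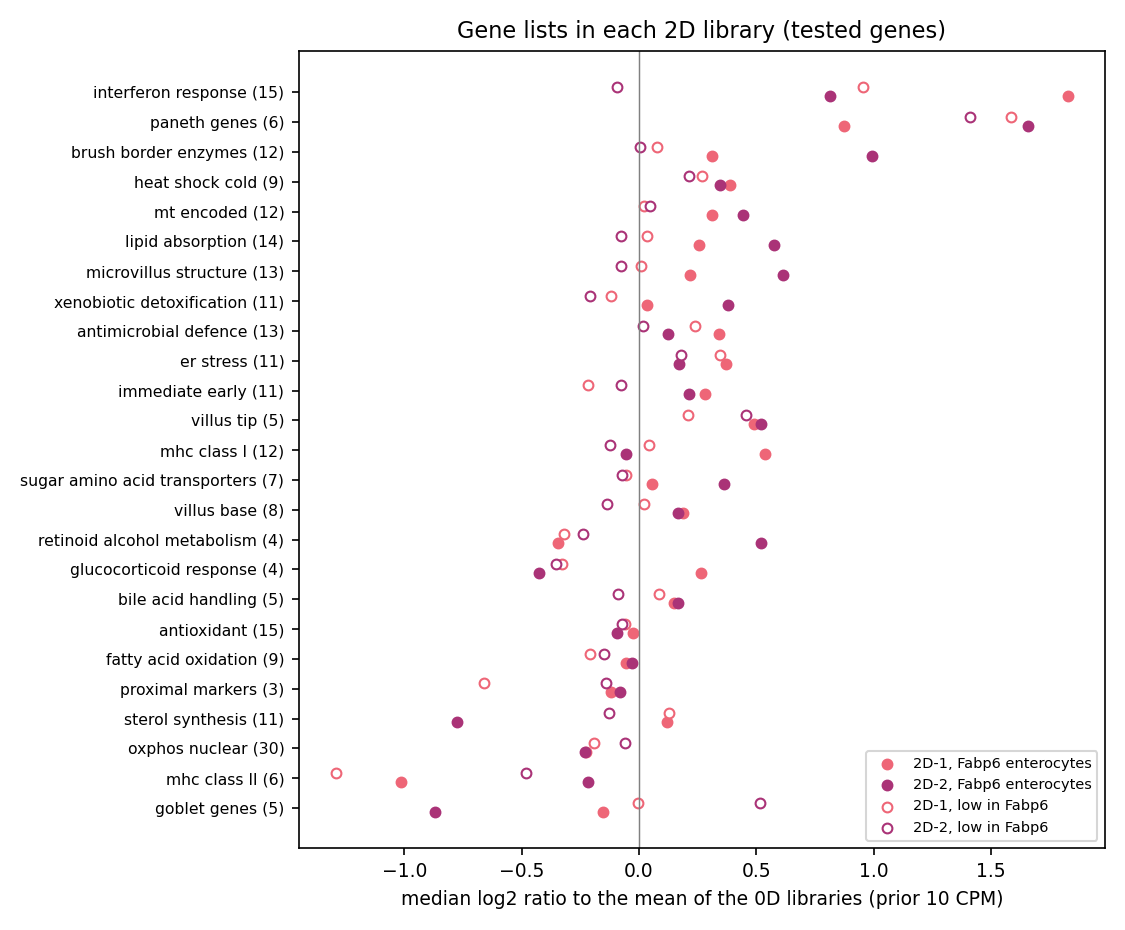
Median log2 ratio of each gene list to the mean of the 0D libraries (x axis, with 10 CPM added before the ratio) in 2D-1 and 2D-2. Filled points are Fabp6 enterocytes and open points enterocytes low in Fabp6, over the genes tested in the members (number in brackets). Interferon genes lie far to the right in 2D-1, Paneth genes lie to the right in both kinds of cell, and brush border enzymes do so in the filled points. The filter on low counts in the members partly fixed the direction of the interferon genes.

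Whether 2D differed from 0D by another amount in Fabp6 enterocytes than in enterocytes low in Fabp6 was tested with an interaction term in edgeR. Of 10004 genes, 10 (0.1%) passed an edgeR adjusted p of 0.05. The change was more positive in the Fabp6 cells for 6 (0.06%) and more negative for 4 (0.04%). At an unadjusted p under 0.05 there were 422 genes (4.22%), 2.42% more positive and 1.8% more negative. Xdh had a difference of changes of 1.35 ± 0.32 (SE, log2, edgeR adjusted p 0.0266). Reg3b had one of -1.27 ± 0.21 (SE, edgeR adjusted p 1.08e-05), with members at 40130 to 57396 CPM in all libraries and the others higher in both 2D libraries. DESeq2 called 0 genes, and edgeR called 0 without 0D-1. No bile acid gene outside the rule passed.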

How the data were processed

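The authors deposited raw UMI counts per gene and cell barcode for 4 libraries (10x Genomics 3′ kit, per the labels' protocols). Counting used Cell Ranger 2.1.1 with build mm10 per the submitters' processing notes, whereas the file headers name cellranger 7.0.0. Whether intron reads were counted, which would alter every level, is not given in the sources used here. Deposited barcodes had at least 500 UMIs.

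Counts were scaled to 10000 UMIs per cell, log1p-transformed and z-scored over 29731 cells to apply the rule. The members and gene lists were chosen with earlier results of these data known. Doublets were scored with Scrublet (scanpy 1.11.5, seed 1, expected share 8%). It called 624, 367, 521 and 0 cells and was taken to have failed in 2D-2, so all cells were kept. Leaving out cells above a common score was an alternative.

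Cells are not replicates. The UMIs of each class were added up within a library and tested with edgeR 4.0.16 (filterByExpr, TMM, quasi-likelihood test, Benjamini-Hochberg over all genes, threshold 0.05) in R 4.3.3. Standard errors are the log2 change divided by the root of F. Classes were compared with library as a block. The 22 genes of the rule entered the fits but no count. DESeq2 1.42.0, other scalings and filters, thinning to 3000 UMIs, other Fabp6 limits and leaving out each library were alternatives. The fits were tested on simulated data with an assumed spread. For 2D against 0D, 10.3% of genes changed by 1 log2 unit were called, and 72.4% of those changed by 2. For the interaction these shares were 7.6% and 44.6%. Changes of 1 log2 unit would thus mostly be missed. Shares were compared with an exact permutation test, with exact (Clopper-Pearson) 95% intervals. Tables were handled in Python 3.11.15 (pandas 2.3.3, scipy 1.17.1).

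Named genes were, besides Fabp6, Fabp1, Sis and Apoa1: the 12 with the smallest p in each direction for 2D against 0D, up to 4 tested members of each list with the highest mean CPM and all tested bile acid genes. The rule also took the 10 with the largest change in each direction between the classes (adjusted p under 0.05, mean of at least 20 CPM), and the 6 with the smallest interaction p. Others are named as members of a list counted in the text. Gene and promoter positions are from RefSeq (GRCm38.p6). Of the 10 genes looked up, 9 had a promoter entry.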

Additional observations from a re-analysis of the deposited data

Results flagged for a closer look

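A difference between Fabp6 enterocytes and enterocytes low in Fabp6 in the change from 0D to 2D passed edgeR's interaction test for 10 genes. The class-by-group term was positive for Oasl2, an interferon-induced gene (log2 2.39, edgeR adjusted p 0.00890), and for Isg15 (2.02, 0.0357). The Isg15 term rested on 2D-1, where members were at 840 CPM against 8.08, 28.7 and 6.26 CPM in the other libraries. It turned to -1.38 without 2D-1 and did not pass without either 0D library. It was also positive for the intestinal fatty acid-binding protein gene Fabp2 (1.41, 3.42e-05), the transcription factor gene Jun (1.39, 0.00890), Xdh (1.35, 0.0266) and the chloride channel regulator Clca4b (1.27, 0.0295). In the members Fabp2 was at 982, 724, 1239 and 4559 CPM in library order, Jun at 92.9, 155, 238 and 269 CPM and Clca4b at 96.9, 144, 241 and 507 CPM. Fabp2 thus stood out in 2D-2. In enterocytes low in Fabp6 it was at 1615, 1520, 1304 and 1866 CPM. Oasl2 was at 12.1, 17.2, 350 and 81.4 CPM in the members, with 3, 3, 215 and 13 UMIs. In enterocytes low in Fabp6 it was at 47.3, 37.1, 206 and 36.9 CPM. It thus stood out in 2D-1 in both kinds of enterocyte.

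The term was negative for Zg16 (-2.01, 5.01e-08), the chemokine gene Ccl6 (-1.77, 0.000202), the desaturase gene Scd2 (-1.77, 0.00890) and Reg3b (-1.27, 1.08e-05). The direction of Zg16 and Ccl6 turned without 0D-1 (0.95 and 1.74) and with doublets above a common score left out (0.39 and 1.00), and neither then passed. The doublet setting kept 17 of the 18 members of 0D-1. At 10 Fabp6 UMIs per 10000 the Zg16 term passed in the opposite direction (1.78, edgeR adjusted p 1.82e-05). Scd2 was at 92.9, 115, 119 and 18.8 CPM in the members, so it was lower in 2D-2 alone, and 2D-1 lay above both 0D libraries. Ccl6 was at 509, 23, 94.4 and 18.8 CPM in the members. Zg16 and Ccl6 were thus highest in 0D-1, the library whose members also had the highest goblet sum. Its part in these terms was not tested.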

How the results depend on the processing

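For 2D against 0D in the members, 0 genes passed in either direction. Without the filter on low counts 72 were higher and 11 lower, after thinning 11 were higher, and with at most 10% mitochondrial UMIs 1 was. Leaving out each library in turn gave 32 to 77 higher and 6 to 22 lower, with the lone library assumed to vary like the other group. With the replicate number as a block 2 were higher. The numbers share only a label (correlation of deviations 0.053 over genes, 2 pairs). Gm42418 reversed to 0.52 after thinning.

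Between the classes, 713 and 721 genes became 240 and 402 after thinning, 383 lower with DESeq2, and 337 and 326 without 2D-1. Leaving out each library gave 337 to 610 higher and 326 to 675 lower. Sult1b1 (-0.030) and Cebpd (-0.011) reversed after thinning.

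For the interaction, 6 and 4 genes became 0 and 0 with DESeq2, 10 and 7 by library size only (chosen after seeing the data), 2 and 7 with at most 10% mitochondrial UMIs, and 3 and 1 after thinning. There were 9 lower with RLE size factors, 7 lower without the filter and 10 higher at 10 Fabp6 UMIs per 10000. Leaving out each library gave 0 to 18 higher and 0 to 26 lower. Over these leave-one-out fits Isg15 ran from -1.38 (without 2D-1) to 2.91, Zg16 from -4.32 to 0.95 and Ccl6 from -4.39 to 1.74. Zg16 reversed with doublets above a common score left out (0.39), at 5 and 10 Fabp6 UMIs per 10000 (1.23 and 1.78) and without 0D-1 (0.95). In the same settings Ccl6 was at 1.00, 1.42, 1.76 and 1.74, and at 0.032 with second lineage scores under 0.5. The cause was not tested.

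The larger share of Fabp6 cells among non-dividing enterocytes in 2D held in all settings, with differences of 2.79 to 4.93 percentage points over the leave-one-out fits. Sums of 12 to 41 cells limit all fits on the members.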
